A study of Micropterus salmoides with 45 samples.

Results

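Severe hypoxia and control were compared at 12 h in liver RNA of a freshwater fish, the largemouth bass (Micropterus salmoides), with all listed genes as the readout. The comparison rests on 6 of the 45 libraries of the study, 3 from severe hypoxia at 12 h and 3 from control at 12 h, taken by their titles. Control water held 7 mg/L dissolved oxygen and severe hypoxia 1.2 ± 0.2 mg/L. Moderate hypoxia, at 3.0 ± 0.2 mg/L, is used for reference. The study sampled each oxygen level at 0, 4, 8, 12 and 24 h, with 3 libraries per level and time and so 15 groups. All fish were 6 months old, were kept at 20 °C and were fasted for the whole trial, so the controls were fasted too. Per the labels' protocols, 9 tanks held 30 fish each, and every oxygen level had 3 tanks of its own. The tank behind a library is not known, so tank and oxygen level cannot be told apart. The labels do not say whether libraries of a group came from separate fish, and p-values therefore measure the spread between these samples.

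The liver keeps blood glucose up by breaking down glycogen and by making new glucose, and it stores, burns and exports fat. Burning fat needs oxygen, whereas glycolysis yields ATP without it. When oxygen falls, the hypoxia-inducible factors (HIF), transcription factors whose alpha subunits are marked for destruction when oxygen is plentiful, accumulate and turn on genes of glycolysis, glucose uptake and oxygen supply. This is general vertebrate background. The study was about glucose and lipid use, but the listed genes carry only the identifiers of a Trinity assembly, such as c84828_g3, in which the part before _g names a component of related sequences. Of these identifiers, 0 matched the reference gene table, so genes are described by identifier, level and change. Lists of glycolysis, gluconeogenesis, lipid, HIF and liver cell type genes could not be applied, and the labelled tissue could not be checked against markers.

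The tables listed 2660 assembled genes from 2245 components, in RPKM, a read number divided by the length of the gene and the total of the library. The rule by which these genes were listed is not given in the sources used here, so the shares of changed genes below describe this list and not the whole liver transcriptome. Depth was even: the 6 libraries held 29986862 to 33148917 reads, with a median of 436 reads per listed gene. The listed genes took 11.6%, 11.9% and 12.5% of all reads in the control libraries of 12 h and 14.95%, 14.1% and 13.2% in the severe ones. Every severe library lay above every control library in this share, which averaged 14.1% ± 0.867 (SD, n = 3) against 12.0% ± 0.456 (n = 3). The 2-sided exact permutation test gave p = 0.1, the smallest that 3 against 3 libraries allow.

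Among the 9 libraries of 12 h, the first principal component held 66.3% of the variance of the listed genes. The severe libraries had scores of 42.8, 39.1 and 32.4 on it, and the control libraries -25.2, -28.0 and -30.0. The moderate libraries did not form 1 cluster: replicates 1 and 3 scored -0.767 and -4.63, whereas replicate 2, at -25.8, lay among the controls. The 12 h controls themselves were also compared with the controls of other times, where a lack of calls does not measure how close the groups were. Against the mean of the other 4 control times limma called 0 of 2656 genes, with 210 at an unadjusted p under 0.05, and voom on the recovered reads called 1.

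After 12 h of severe hypoxia the majority of listed genes had changed, in both directions. Among 2656 genes tested, severe hypoxia raised 977 and lowered 889 relative to control (limma on log2(RPKM + 1), Benjamini-Hochberg adjusted p under 0.05, here termed called). Together these were 70.3% of the genes tested, 36.8% higher and 33.5% lower. In 1955 genes (73.6%) the 3 severe libraries did not overlap the 3 controls, with 1029 above them (38.7%) and 926 below (34.9%). The median change was 1.26 on the log2 scale among the genes called higher and -1.25 among those called lower, against 0.08 over all genes tested. In bulk liver, fewer cells of a type and less RNA per cell cannot be told apart. Across 16 alternative settings the number called ran from 1417 to 2026.

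**Figure D1:**
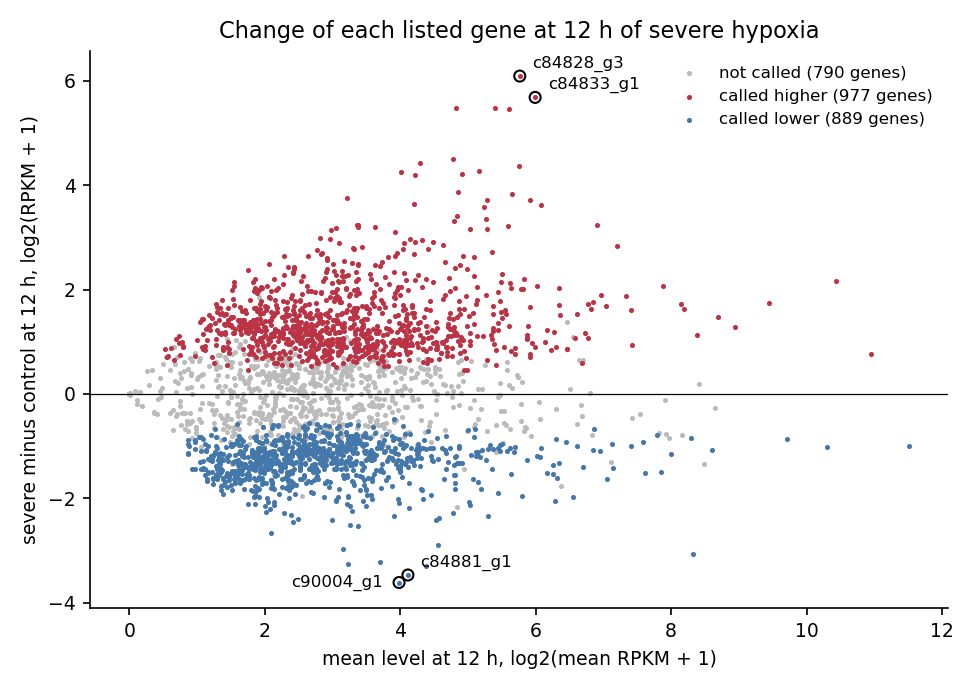
Each point is 1 of 2656 listed genes: the horizontal axis is its mean level at 12 h and the vertical axis the severe minus control difference, both on log2(RPKM + 1). The 977 red genes and 889 blue genes passed the test, and the 4 circled genes are those named by rule. The rises reach past 6 while the falls stop above -4, but on this scale a fall is limited by the control level.

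The sizes of the rises and falls differed at the extremes. At least 2-fold changes on this scale were nearly equal in number, with 710 genes higher and 707 lower. Beyond 4-fold there were 149 genes higher against 44 lower, beyond 8-fold 34 against 6, and beyond 16-fold 12 against 0. On log2(RPKM + 1) a fall cannot exceed the control level itself, whereas a rise has no such limit. Genes low in control therefore could not show the largest falls, and the counts at the extremes do not compare the 2 directions. Few genes went from near absence to clear presence. In 10 genes all 3 controls were under 1 RPKM and all 3 severe libraries at 5 RPKM or more, and in 3 genes the reverse was seen. In 2 genes no control library of 12 h had a read while all 3 severe libraries did.

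For this comparison the naming rule took only genes whose severe and control libraries did not overlap, so that separation was fixed by the choice. The largest rise among genes named by rule was that of c84828_g3 (3317 bp). Its level was 0.500, 0.563 and 0.500 RPKM in the 3 control libraries, and 119, 70.0 and 129 RPKM in the 3 severe libraries. The group means were 106 ± 31.7 RPKM in severe hypoxia and 0.521 ± 0.0364 RPKM in control (SD, n = 3 each). The log2 change was 6.09 (SE 0.66, limma adjusted p = 2.03e-08). Across the 15 control libraries of all times this gene reached at most 3.99 RPKM. The moderate libraries of 12 h lay between, at 8.85, 0.776 and 7.84 RPKM, and again replicate 2 was the one near the controls. A second listed gene of the same component, c84828_g4 (2560 bp), had 60.4, 38.0 and 64.0 RPKM in the severe libraries and 0.236, 0.234 and 0.171 RPKM in control (log2 change 5.47, SE 0.53, limma adjusted p = 2.22e-09). Both genes had their lowest severe level in replicate 2. Genes of 1 component can share reads, so these are not independent observations.

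The gene c84833_g1 (3872 bp) rose as steeply but far less evenly. It stood at 0.171, 0.164 and 0.565 RPKM in control and at 246, 8.66 and 120 RPKM in severe hypoxia, a spread of 125 ± 119 RPKM (SD, n = 3). The lowest severe library, replicate 2, was above the highest control, as the naming rule required. The log2 change was 5.68 (SE 0.91, limma adjusted p = 9.66e-06), and it ran from 4.73 to 7.07 when any 1 of the 6 libraries was left out. In moderate hypoxia at 12 h the gene stood at 0.279, 0.0973 and 0.184 RPKM, within or below the range of the controls.

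Among the falls, c90004_g1 (623 bp) went from 23.1, 40.3 and 21.1 RPKM in control to 2.07, 1.92 and 0.340 RPKM in severe hypoxia. The group means were 28.2 ± 10.5 against 1.44 ± 0.958 RPKM (SD, n = 3 each), and the log2 change was -3.61 (SE 0.69, limma adjusted p = 7.76e-05). Moderate libraries, at 13.2, 35.8 and 11.5 RPKM, overlapped the controls. The gene c84881_g1 (2294 bp) fell from 45.9, 14.6 and 32.3 RPKM to 2.38, 1.72 and 0.950 RPKM, a log2 change of -3.47 (SE 1.17, limma adjusted p = 0.00994). Its moderate libraries, at 8.66, 0.985 and 46.3 RPKM, spread over the range of both groups. This gene was the least steady of the 4: the 15 control libraries of all times spread from 0.819 to 142 RPKM with a median of 15.4 RPKM, and the adjusted p reached 0.0390 without 1 of the 6 libraries.

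**Figure D2:**
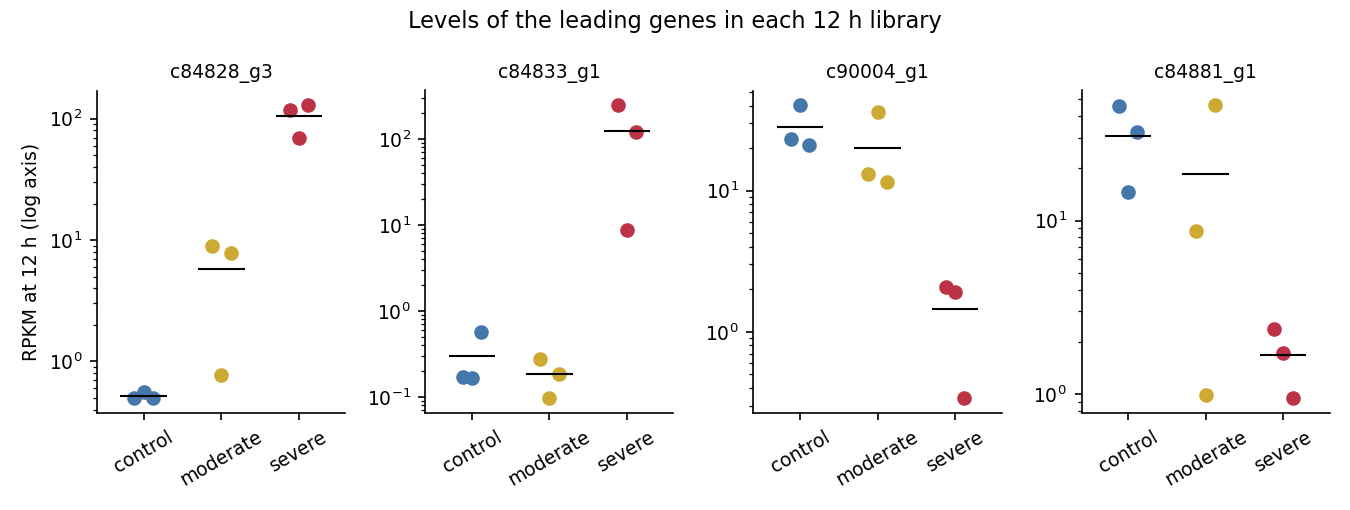
Level in RPKM, on a log axis, of the 4 genes named for 12 h in each control, moderate and severe library of that time; points are single libraries and lines group means. The 3 severe libraries lie apart from the 3 controls in all 4 genes, as the rule that named these genes required. The moderate libraries spread from control levels to in-between ones. The exception is 1 at 0.985 RPKM, among the severe libraries of c84881_g1.

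Rises were more frequent among genes low in control and falls among genes high in control. Genes were grouped by their mean over the 12 control libraries of the other times. These libraries do not enter the difference at 12 h, but they share in the variance estimate behind the calls. Of 199 genes under 1 RPKM in those libraries, 121 were called higher (60.8%) and 2 lower (1.01%). Genes this low in control passed the filter largely through libraries where they were higher, so their direction is partly fixed by it. From 1 to 5 RPKM, 441 of 1091 were higher (40.4%) and 343 lower (31.4%). These shares were near the 36.8% higher and 33.5% lower among all tested genes. From 5 to 20 RPKM the balance was the opposite, with 325 of 1041 higher (31.2%) and 409 lower (39.3%). From 20 to 100 RPKM, 79 of 273 were higher (28.9%) and 111 lower (40.7%). Of the 52 genes at 100 RPKM or more, 11 were higher (21.2%) and 24 lower (46.2%). The median change over these 5 ranges went from 1.0 through 0.33, -0.29 and -0.52 to -0.82 on the log2 scale. Since 1 is added to each RPKM value, changes of the lowest genes are understated.

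The most abundant listed gene of the controls, of 1591 bp, was among those that fell. It held 3381, 3365 and 4919 RPKM in the control libraries and 2226, 1527 and 2046 RPKM in the severe ones, so that every severe library was below every control. The means were 3888 ± 893 and 1933 ± 363 RPKM (SD, n = 3 each), a log2 change of -1.0 (SE 0.30, limma adjusted p = 0.00394). Its moderate libraries, at 3496, 3292 and 4505 RPKM, lay near the controls. Among the 50 genes most abundant in the controls of the other times, 23 were called lower, 10 higher and 17 neither, where 33.5% of all tested genes were called lower and 36.8% higher.

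Summed over genes, the called genes changed places in the listed expression: those called lower held the larger share in control and those called higher in severe hypoxia. These sums restate the calls as levels, since the same libraries chose the genes. The 977 genes called higher summed to 9931, 9437 and 10601 RPKM in control and to 30679, 29461 and 27326 RPKM in severe hypoxia. Their share of the listed RPKM was 21.8% to 23.7% in control and 58.4% to 61.2% in severe hypoxia. The 889 genes called lower summed to 21094, 22774 and 23610 RPKM in control and to 9438, 8655 and 10081 RPKM in severe hypoxia, from 50.4% to 52.7% of the listed RPKM down to between 17.98% and 21.5%. In the moderate libraries, which entered the choice of genes only through the shared variance estimate, the genes called higher held 40.2%, 26.3% and 36.9% of the listed RPKM. Replicate 2 was again nearest to control. Control and severe libraries chose these genes, which by itself favours a place between them for the moderate libraries. Directly compared with control at 12 h, moderate hypoxia had 0 genes called by limma, with 452 at an unadjusted p under 0.05.

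**Figure D3:**
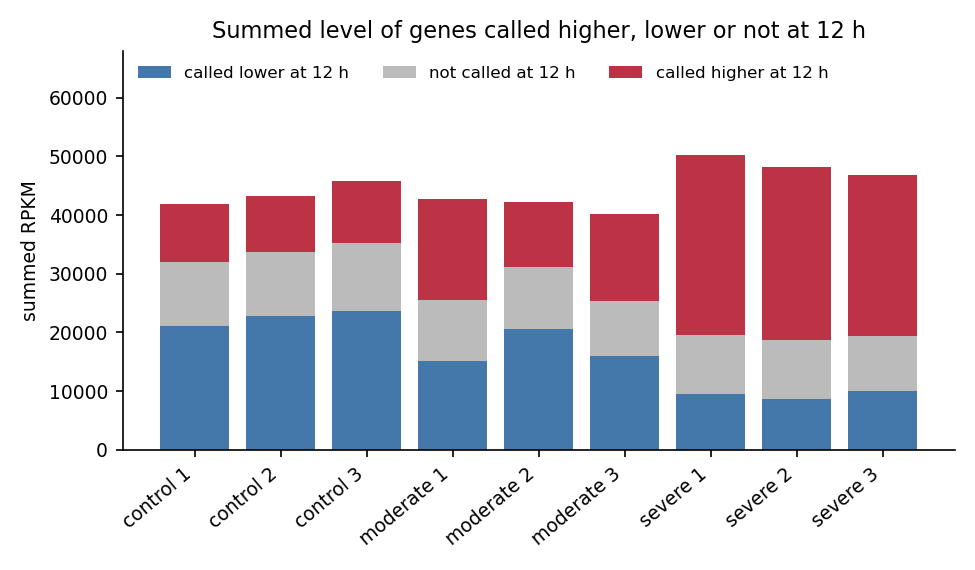
Stacked bars show the summed RPKM of the 977 genes called higher, the 889 called lower and the 790 not called, in each of the 9 libraries of 12 h. The called-higher sum is 9437 to 10601 RPKM in the controls and 27326 to 30679 RPKM in severe hypoxia, and the called-lower sum goes the other way. The moderate libraries lie between, a place favoured by choosing the genes on the other 6 libraries.

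The spread among the severe libraries was wider than among controls in the genes called higher and not in those called lower. The median SD on the log2 scale was 0.34 in severe hypoxia and 0.21 in control for the former, and 0.28 and 0.29 for the latter. Adding 1 to each RPKM value narrows the SD at low levels. The lower level is that of control in genes called higher and that of severe hypoxia in genes called lower. How much of the difference in spread comes from this was not tested. Over all genes, the median SD was 0.25 in control, 0.38 in moderate and 0.32 in severe hypoxia at 12 h, and the severe SD was above the control SD in 1585 of 2656 genes (59.7%). For genes called higher with a severe mean of at least 5 RPKM (785 genes), the highest severe library was typically 1.61 times the lowest, and in 44 of them more than 4 times, as in c84833_g1. Genes called lower had a median length of 2581 bp, those called higher 2886 bp and those not called 2217 bp. At least 2 genes were tested in 329 components, and at least 2 were called in 205. Among their called genes, 112 of these 205 components had only higher genes, 58 only lower genes and 35 both. Of all tested genes, 36.8% were called higher and 33.5% lower. Genes of 1 component can share reads, and agreement between genes of different components was not counted for comparison.

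The genes called at 12 h were followed at the other sampling times, which had severe and control libraries of their own. Choosing genes by their calls at 12 h favours large differences at that time. Fewer calls and smaller medians at earlier times therefore do not by themselves show a build-up. Of the 977 genes called higher at 12 h, 127 already were at 4 h, where 6.63% of all tested genes were called higher. At 8 h it was 459 of them, with 21.5% of all tested genes called higher, and at 24 h 831, with 40.7%. At the start, limma called 0 of all 2656 genes, with 161 at an unadjusted p under 0.05, and voom also called 0. Such a lack of calls does not measure how close the groups were. At 0 h the difference was positive in 632 of the 977 genes (64.7%), against 48.3% of all tested genes. It was negative in 345 of them (35.3%), against 50.8% of all tested genes. Over the 5 sampling times in order, the median difference of the 977 genes was 0.13, 0.39, 0.74, 1.26 and 1.26 on the log2 scale.

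The falling genes were followed in the same way. Of the 889 called lower at 12 h, the calls at 4, 8 and 24 h covered 57, 426 and 544, against 2.94%, 18.6% and 25.9% of all tested genes. Their median differences, in order of time, were -0.11, -0.29, -0.83, -1.25 and -0.92. At 0 h the difference was negative in 583 of the 889 genes (65.6%), against 50.8% of all tested genes, and positive in 306 (34.4%). Across all tested genes, the median change in response from 12 to 24 h was 0.16 on the log2 scale (0.03 with quantile normalization). Whether the rising and falling genes differed in course was not tested. Selection at 12 h favours genes that are extreme at that time, so a smaller median at another time is not by itself a return towards control. Calls at 12 h alone were made for 157 of the lower genes and 66 of the higher genes. In contrast, 99 higher and 35 lower genes were called at all of 4, 8, 12 and 24 h. These counts depend on the calls at the other times, where limma called more genes higher than lower. The numbers were 176 against 78 at 4 h, 570 against 495 at 8 h and 1082 against 689 at 24 h. The counts therefore do not show whether the falls were shorter than the rises.

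**Figure D4:**
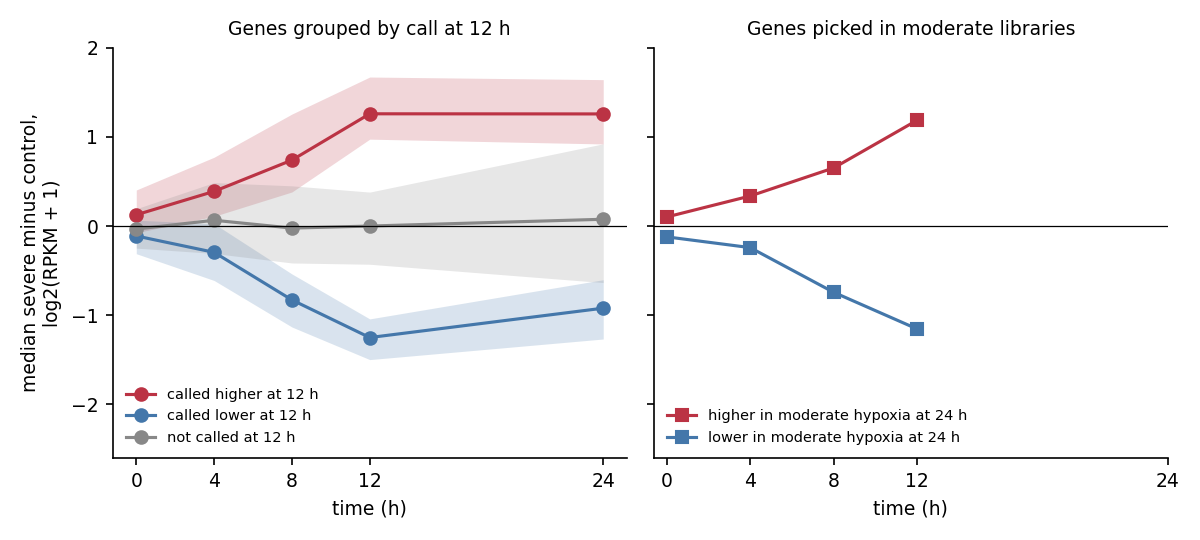
Median severe minus control difference on log2(RPKM + 1) against time in hours, for genes grouped by their call at 12 h (left, with bands from the lower to the upper quartile of genes) and for genes called in moderate hypoxia at 24 h (right). On the left, the rising group stands at 1.26 at 12 and 24 h, the falling group reaches -1.25 at 12 h and stands at -0.92 at 24 h; the values at 12 h chose those groups. On the right, the medians reach 1.19 and -1.15 at 12 h.

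Many calls of 12 h had not been made earlier. Of the genes called higher, 507 had no such call at 4 or 8 h, and 440 of these were called higher at 24 h, as were 40.7% of all tested genes. Of the genes called lower, 458 had no such call at 4 or 8 h, and 297 of them were called lower at 24 h, as were 25.9% of all tested genes. Across the 2656 genes, the differences at 12 h had Pearson correlations of 0.465, 0.590, 0.848 and 0.872 with those at 0, 4, 8 and 24 h. These are descriptions across genes, which are not independent replicates, from separate libraries of the same gene list.

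Genes picked on other libraries moved in their own direction at 12 h of severe hypoxia as well. Moderate hypoxia at 24 h gave 442 genes above control (16.6%) and 411 below it (15.5%) by limma, from libraries outside the 2 groups compared at 12 h. The estimate of each gene's variance is shared, since all groups were fitted together, so the calls at 12 h are not fully separate from this choice, while the differences are. In severe hypoxia at 12 h the 442 genes had a median difference of 1.19, with 430 above 0 and 343 called higher. The 411 genes had a median of -1.15, with 399 below 0, 326 called lower and 2 called higher. Over all genes tested the median was 0.08, and 36.8% were called higher and 33.5% lower.

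Whether the response itself differed between 12 h and another time was tested as the difference of 2 differences, each against the controls of its own time. From 0 to 12 h the response rose in 525 genes (19.8%) and fell in 379 (14.3%), 904 in all (34.0%, limma). Of the named genes, c84833_g1 had the largest rise in response, 5.34 in log2 units (SE 1.28, limma adjusted p = 0.00480), followed by c84828_g3 with 4.93 (SE 0.93, adjusted p = 0.00124). The call for c84833_g1 was lost with voom on the recovered reads (adjusted p = 0.165). Its rise was not particular to 12 h. The severe minus control difference of c84833_g1 was 5.46 at 4 h (limma adjusted p = 0.000189), 6.76 at 8 h and 5.79 at 24 h. The named falls were c86863_g6, with -3.43 (SE 0.95, limma adjusted p = 0.0108), and c91233_g9, with -3.22 (SE 0.68, adjusted p = 0.00240). At 12 h, c91233_g9 stood at 32.5, 34.97 and 53.8 RPKM in control and 8.23, 3.71 and 2.71 RPKM in severe hypoxia, while at 0 h the severe group was at 29.7 ± 2.91 and the control group at 24.1 ± 6.99 RPKM (SD, n = 3). Leaving out single libraries lowered the 904 calls to 510 or 572 (severe 12 h replicate 1 or 2), 553 or 551 (severe 0 h replicate 1 or 3) and 530 (control 0 h replicate 1).

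From 4 to 12 h the response rose in 280 genes (10.5%) and fell in 230 (8.66%), 510 in all (19.2%, limma). The gene c90767_g2 led the rises, with a difference of 3.95 (SE 1.12, limma adjusted p = 0.0177). It stood at 17.6, 71.9 and 21.1 RPKM in the severe libraries of 12 h, of which replicate 2 was the highest, and at 4.28 ± 1.89 RPKM in severe hypoxia at 4 h. Its control mean was 3.12 RPKM at 4 h and 0.442 RPKM at 12 h, so the control levels also entered the difference. Moderate 0 h replicate 1 held 43.6 RPKM of this gene. Next was c84828_g4, with 3.66 (SE 0.75, limma adjusted p = 0.00465), and the falls were led by c86863_g6, with -3.16 (SE 0.95, adjusted p = 0.0222), and c90004_g1, with -3.12 (SE 0.98, adjusted p = 0.0264). None of these 4 calls held with voom, where the adjusted p ran from 0.0518 to 0.0611, or in a fit of the 4 groups alone, where it ran from 0.0585 to 0.101. Single libraries also ended calls: for c90767_g2 severe 12 h replicate 2 (adjusted p = 0.0535 without it), for c86863_g6 control 12 h replicates 1 and 2, severe 4 h replicate 3 and severe 12 h replicate 1 (up to 0.0693), and for c90004_g1 control 4 h replicate 3, control 12 h replicate 2, severe 4 h replicate 1 and severe 12 h replicate 3 (up to 0.107). The fit of the 4 groups called 0 genes in all, with 796 at an unadjusted p under 0.05, and voom called 413. Leaving out a control library of 4 h moved the 510 calls to 800 (replicate 2) or 207 (replicate 3). They became 259 when severe 4 h replicate 1 was dropped, 310 for control 12 h replicate 2, and 322 or 315 for severe 12 h replicate 1 or 2.

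Between 8 and 12 h few genes had a response that differed by the test. Limma called 15 genes (0.565%), 3 with a rise (0.113%) and 12 with a fall (0.452%), and 375 had an unadjusted p under 0.05. The gene c88742_g3 (4936 bp) stood at 7.38 ± 1.67 RPKM in severe hypoxia at 8 h, against 9.56 ± 3.5 RPKM in control (SD, n = 3 each), and at 22.6, 32.7 and 24.2 RPKM in the 3 severe libraries of 12 h, against 7.24, 10.1 and 7.58 RPKM in control (difference of responses 1.86, SE 0.37, limma adjusted p = 0.0103). At 24 h it stood at 22.9 ± 4.73 RPKM. The gene c69125_g1 (237 bp) switched sides: severe hypoxia was below control at 8 h, at 20.8 ± 8.73 against 41.6 ± 3.90 RPKM, and above it at 12 h, at 46.4 ± 6.64 against 29.3 ± 2.81 RPKM (SD, n = 3 each). Its difference of responses was 1.69 (SE 0.36, limma adjusted p = 0.0138), with log2 changes of -1.05 at 8 h (adjusted p = 0.00170) and 0.64 at 12 h (adjusted p = 0.0241). At 24 h the severe and control means were 30.0 and 30.4 RPKM. The control mean of c69125_g1 had been 53.9 RPKM at 0 h and 64.0 RPKM at 4 h, above the severe mean of 12 h. Moderate hypoxia at 12 h was higher than severe hypoxia, at 56.9 ± 2.18 RPKM (SD, n = 3). Both calls were lost with voom (adjusted p = 0.229), which also left out control 8 h replicate 2, and with the 4 groups alone (adjusted p = 0.215). Without control 8 h replicate 2 the adjusted p was 0.0834 for c88742_g3 and 0.0530 for c69125_g1, and for the latter it was 0.0679 without control 8 h replicate 1.

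The genes whose response fell between 8 and 12 h had higher levels in the severe libraries of 8 h than in those of 12 h. All 12 were called higher at 8 h and 0 of them at 12 h. The one with at least 5 RPKM, c79574_g2 (849 bp), went from 14.5 ± 11.8 RPKM in severe hypoxia at 8 h to 1.28 ± 0.302 RPKM at 12 h, against 0.532 ± 0.564 RPKM in control at 12 h (difference of responses -2.44, SE 0.59, limma adjusted p = 0.0381), and this call was lost in 13 of 21 alternatives. Leaving out any control library of 8 h, control 12 h replicate 2 or 3, severe 8 h replicate 1 or severe 12 h replicate 1 or 2 was enough, with an adjusted p up to 0.224. The other 11, chosen after their values were seen, all had reads in each of the 3 severe libraries of 8 h, with 20.9 to 31.9 RPKM summed over the 11. They also all had reads in control 8 h replicate 3, at 13.6 RPKM, and none in the other two controls of that time. In the libraries of 12 h, 1 gene had reads in 1 library, and 10 of the 11 had none in severe hypoxia. Only 5 of the 39 libraries outside control and severe hypoxia at 8 h held any read of them. These 11 genes thus passed the filter of 1 RPKM in 3 libraries largely through the severe libraries of 8 h. Their direction, higher at 8 h and lower at 12 h, is therefore largely fixed by the filter. With a filter of 5 RPKM, limma called 2 rises and 0 falls between 8 and 12 h. Dropping 1 library of 8 h moved the 15 calls to 8 or 88 (severe replicate 1 or 3) and to 4, 3 or 30 (control replicate 1, 2 or 3). Voom, which also left out control 8 h replicate 2, called 0 of these differences, with 357 at an unadjusted p under 0.05.

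From 12 to 24 h limma called 5 differences of response (0.188%), 4 upwards (0.151%) and 1 downwards (0.0377%), with 328 at an unadjusted p under 0.05. The gene c88571_g5 (2370 bp) was below control at 12 h, with 2.88, 1.60 and 2.58 RPKM in severe hypoxia against 4.81, 3.97 and 6.89 RPKM, and above it at 24 h, with 11.9 ± 2.04 against 3.05 ± 0.544 RPKM (SD, n = 3). The difference of responses was 2.55 (SE 0.43, limma adjusted p = 0.00197), and it was called in all 21 alternatives. The gene c91092_g8 (5929 bp) had the same course, from 1.07, 1.53 and 2.32 RPKM against 3.62, 4.98 and 5.41 RPKM at 12 h to 7.11 ± 3.42 against 2.63 ± 1.35 RPKM at 24 h (difference 2.27, SE 0.44, limma adjusted p = 0.00920). Its call was lost without control 24 h replicate 1 (adjusted p = 0.0563) without severe 12 h replicate 1 (adjusted p = 0.0670) and with the 4 groups alone (adjusted p = 0.135). In both genes the 3 severe libraries of 12 h lay below all 3 controls. The control means of 12 h were above those of 0 h, at 5.22 against 2.64 RPKM in c88571_g5 and 4.67 against 2.17 RPKM in c91092_g8. The severe means of 12 and 0 h were 2.35 and 2.58 RPKM in c88571_g5, and 1.64 and 2.40 RPKM in c91092_g8. Dropping 1 library moved the 5 calls to 2 or 14 (severe 12 h replicate 1 or 3), 2 or 9 (control 24 h replicate 1 or 3), or 3 (control 12 h replicate 2, severe 24 h replicate 2 or 3).

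**Figure D5:**
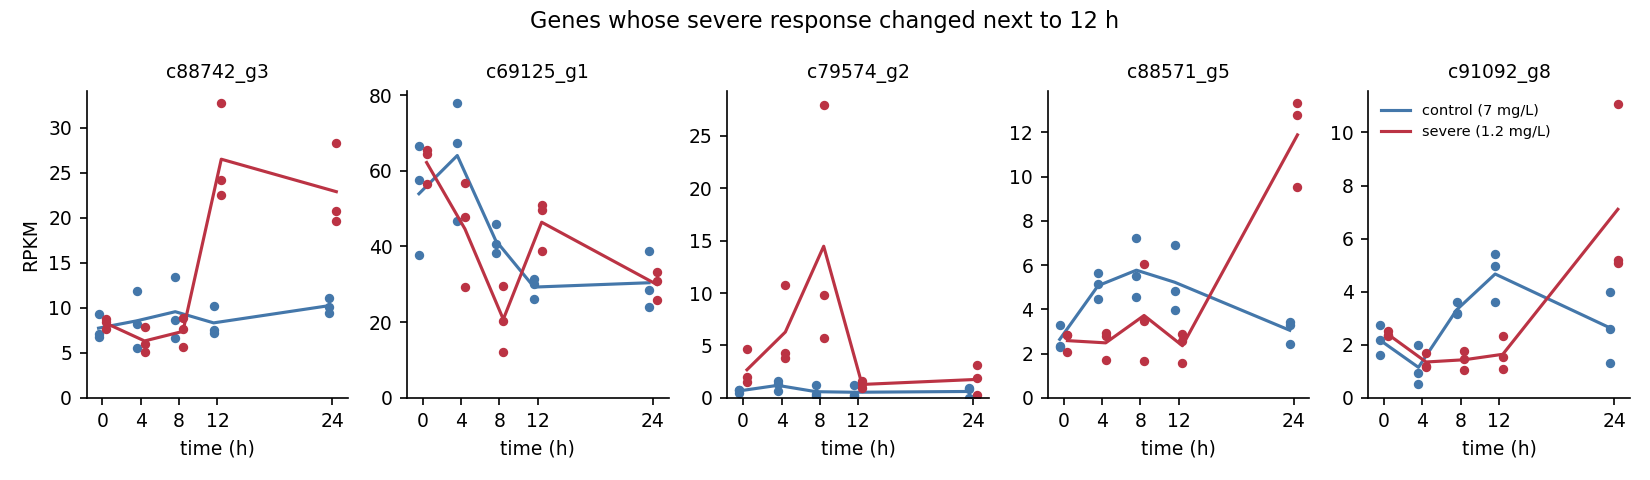
RPKM of the 5 genes named for a response that differed between 12 h and 8 h or 24 h, in each control and severe library at the 5 times; points are libraries and lines join group means. c88742_g3 rises in severe hypoxia between 8 and 12 h, c69125_g1 crosses its control, c79574_g2 peaks at 8 h, and c88571_g5 and c91092_g8 lie below control at 12 h and above it at 24 h.

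Severe and moderate hypoxia also differed at 12 h, in a test that shares the severe libraries with the comparison above. Limma called 685 genes higher (25.8%) and 385 lower (14.5%) in severe hypoxia, 1070 in all (40.3%). With quantile normalization the split was 484 higher and 486 lower, so the excess of higher genes depended on the scaling. Without moderate replicate 2, the library that lay among the controls, 684 genes were called. Of the 4 named genes, those that kept their call in all 15 alternatives were c84833_g1, 5.80 higher in severe hypoxia (SE 0.91, limma adjusted p = 1.36e-05), and c90004_g1, with -3.03 (SE 0.69, adjusted p = 0.00109).

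The other 2 named genes had libraries of 1 group far apart. The gene c86594_g4 held 334, 351 and 378 RPKM in severe hypoxia and 382, 631 and 321 RPKM in control, but 0, 332 and 0.414 RPKM in moderate hypoxia (log2 difference 5.51, SE 1.77, limma adjusted p = 0.0142). Severe hypoxia against control did not pass the test for it (log2 change -0.27, limma adjusted p = 0.901). Single libraries of other groups were as low for c86594_g4. It held 0.164 RPKM in moderate 0 h replicate 3, 0.420 RPKM in moderate 8 h replicate 1 and 0.263 RPKM in severe 4 h replicate 3. The gene c86537_g5 held 0.894, 0 and 0.912 RPKM in severe hypoxia, 4.66, 14.9 and 21.9 RPKM in moderate hypoxia and 11.1, 16.3 and 0.0294 RPKM in control, where replicate 3 stood apart (severe minus moderate -3.05, SE 1.19, limma adjusted p = 0.0387). Its call was lost without any 1 of the severe libraries or of moderate replicates 2 and 3 (adjusted p up to 0.115), with voom (0.126) and with a pseudocount of 0.1 (0.0715). That of c86594_g4 was lost without moderate replicate 1 or 3 (adjusted p = 0.0946 and 0.0780), with voom (0.0963) and with the 2 groups alone (0.1003).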

How the data were processed

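Total RNA of liver was made into TruSeq libraries, read from both ends at 125 bp, and the reads were assembled with Trinity, per the labels' protocols. The authors deposited 1 table per library, read here as RPKM from the values, since the file headers name no unit. Which aligner and counter made them is not given in the sources used here. One set of whole gene lengths and library totals turned all 117443 deposited RPKM values above 0 into whole reads (tolerance 0.01), which gave depth and lengths. For control 8 h replicate 2 the table holds 2527 genes, and its 133 missing values stayed missing.

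Tests used log2(RPKM + 1), the 2656 genes that reached 1 RPKM in 3 or more libraries, and limma 3.58.1 in R 4.3.3 with an intensity trend, 15 group means over 45 libraries and Benjamini-Hochberg adjustment over all genes. The design foresaw a count test for counts, which did not apply. Named genes are, per contrast, up to 2 rises and 2 falls, the largest among called genes with a group mean of at least 5 RPKM, 1 per component, and for severe against control at 12 h without overlap. The members, lists and rules were chosen with earlier results of these data known. Alternatives were another pseudocount, filter, normalization, control mean or fold minimum, no trend, the compared groups alone, a replicate block, voom on the recovered reads (without control 8 h replicate 2) and leaving out each library. Methods were tested on simulated data.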

Additional observations from a re-analysis of the deposited data

Results flagged for a closer look

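The response to severe hypoxia at 12 h differed from that at another time by a test of the difference itself (limma, Benjamini-Hochberg adjusted p under 0.05) in 904 genes against 0 h, 510 against 4 h, 15 against 8 h and, at 24 h against 12 h, in 5. Differences below are on the log2(RPKM + 1) scale, with 3 libraries in each group.

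Against 0 h, the response at 12 h was 5.34 higher in c84833_g1 and 4.93 higher in c84828_g3, and it differed by -3.43 in c86863_g6 and -3.22 in c91233_g9. Against 4 h, it was 3.95 higher in c90767_g2 and 3.66 higher in c84828_g4, and it differed by -3.16 in c86863_g6 and -3.12 in c90004_g1. Against 8 h, it was 1.86 higher in c88742_g3 and 1.69 higher in c69125_g1, and it differed by -2.44 in c79574_g2. From 12 to 24 h it rose by 2.55 in c88571_g5 and by 2.27 in c91092_g8. The level of c86863_g6 in control varied widely, with 19.5, 23.1 and 2.64 RPKM in the 3 control libraries of 12 h against 0.181, 1.65 and 0.209 RPKM in severe hypoxia.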

How the results depend on the processing

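Severe against control at 12 h kept its count within 1.5 times 1866 in all 16 alternatives (1637 to 1773 without 1 library; 879 higher and 917 lower with quantile normalization), and its 4 named genes kept their calls. The share of reads in listed genes, 17.2% above control, ran from 13.6% to 20.8% above it without 1 library. Without 1 library, the count ran from 510 to 885 for 12 against 0 h, 207 to 800 for 12 against 4 h, 3 to 88 for 12 against 8 h, 2 to 14 for 24 against 12 h, 684 to 990 for severe against moderate hypoxia, and 0 to 1 for the 12 h controls against other control times.

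For 12 against 8 h (15 genes), 2 were called with a pseudocount of 0.1 and 2 with a filter of 5 RPKM. Voom, which also left out control 8 h replicate 2, called 0, and limma with the groups alone called 0. For 24 against 12 h (5 genes), 3 were called with a pseudocount of 0.1, 2 with a filter of 5 RPKM, 3 with voom, 3 with quantile normalization and 1 with the groups alone. With the groups alone, 12 against 4 h gave 0 and severe against moderate hypoxia 572 of 1070; a 2-fold minimum gave 684. Voom gave 1 gene for the 12 h controls. The cause was not tested, except that the 2-fold minimum and the higher filter keep fewer genes by construction.

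Severe and control libraries of 12 h that share a number had correlations of 0.07 to 0.22 in their deviations from the group means, not all above 0.1. Of 6 libraries, 5 correlated best with the one of their own number. Whether same-numbered libraries are related cannot be told from this, and the main fit did not pair them. With a replicate block, 1873 genes were called for severe against control at 12 h, 890 for 12 against 0 h, 518 for 12 against 4 h, 13 for 12 against 8 h, 5 for 24 against 12 h, 1069 for severe against moderate hypoxia and 0 for the controls.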
